A study of Mus musculus with 12 samples.

Results

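The genes described are 10 Polycomb group genes, chosen by name: Ezh1, Ezh2, Eed, Suz12 and Jarid2 of Polycomb repressive complex 2 (PRC2), and Ring1, Rnf2, Bmi1, Scml2 and Cbx2 of the PRC1 class. All 10 were found among the 35666 genes of the deposited gene table by matching Ensembl identifiers to GENCODE M21, and all 10 passed the filter on low values (a mean normalized count of at least 10). RNA was measured in male germ cells isolated from the testis at postnatal day 0 (P0), in 3 Morc1 (+/-) libraries (het) and 3 Morc1 (-/-) libraries (knockout, KO). Both genotypes carried the Mvh-Venus transgene, a germ cell reporter used to isolate the cells, and there was no Morc1 wild-type group. MORC1 is an ATPase of germ cells that takes part in silencing transposable elements (TEs). The labels do not say whether libraries came from separate animals or from pools, so p-values measure only the spread between these libraries, which may be technical.

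Polycomb proteins keep genes silent through chromatin. PRC2 methylates lysine 27 of histone H3, with EZH1 or EZH2 as the catalytic subunit and EED and SUZ12 as its partners. PRC1 ubiquitinates histone H2A through RING1 or RNF2, and its CBX subunits bind the PRC2 mark. In the male germ line the system is known for holding somatic and developmental genes silent while the cells prepare for meiosis. All values below are RNA levels, and neither protein nor histone marks were measured in these libraries.

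RNA of the 10 Polycomb genes did not differ between KO and het germ cells by more than the spread between libraries. The KO and het libraries overlapped for each of the 10 genes. By limma with trend on log2(normalized count + 1), 0 of 10 had an adjusted p under 0.05, against 0.473% of all 26005 tested genes (0.431% higher and 0.0423% lower in KO). The unadjusted p was under 0.05 for 0 of 10, against 6.86% of all tested genes, and edgeR and DESeq2 on the recovered reads also gave 0 of 10 by adjusted and 0 of 10 by unadjusted p. Groups that did not overlap were found for 0 of 10 members and for 12.7% of all tested genes. With a background this low, a count of 0 among 10 is no result particular to these genes. The median log2 difference (KO minus het) was 0.14 over the 10 genes, with 7 positive and 3 negative, beside -0.02 over all tested genes. The 95% intervals given with each gene show how large a difference these libraries could have held.

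**Figure D1:**
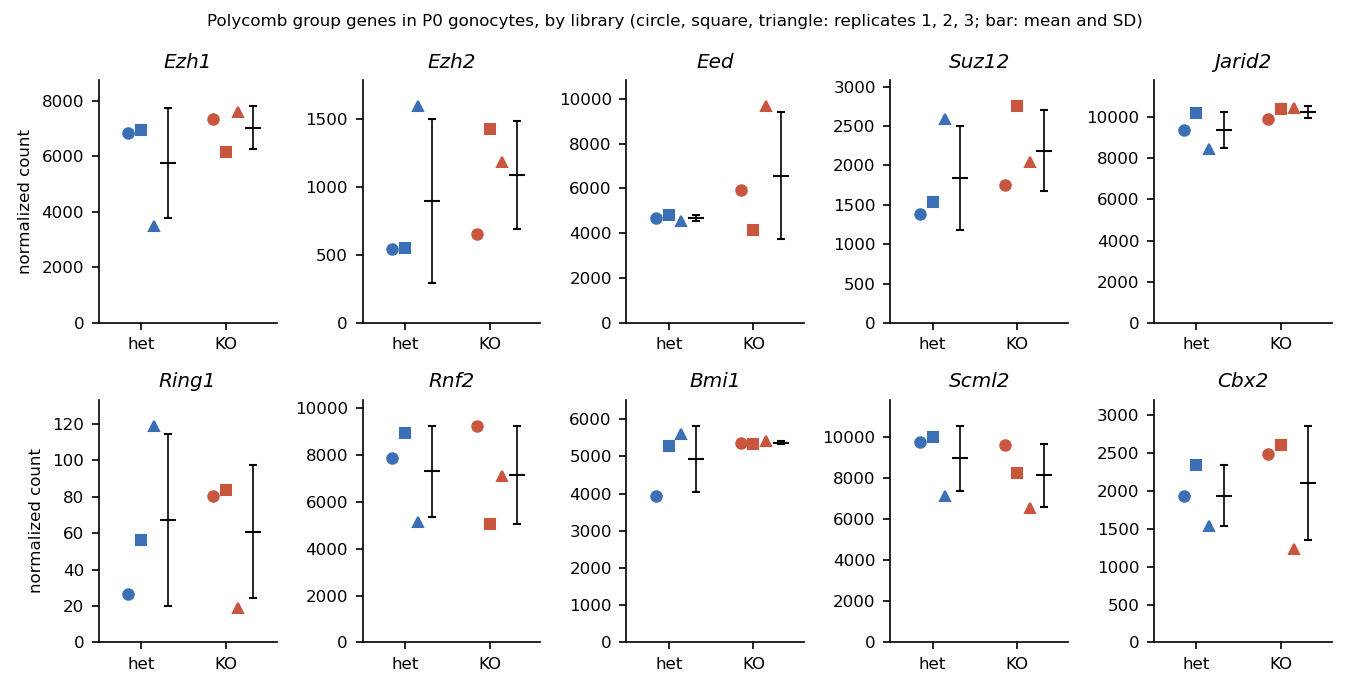
Normalized counts of the 10 Polycomb genes in each library (het blue, KO red, with circles, squares and triangles for replicates 1, 2 and 3, and bars for the mean and SD of 3 libraries, each panel starting at 0). The genotypes overlap in every panel, and het replicate 3 is apart from the other het libraries for Ezh1, Ezh2, Suz12 and Ring1.

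The libraries held 28363683 to 32816861 gene reads, without molecular identifiers. Morc1 itself read 7248, 7485 and 4126 normalized counts in het, against 1360.5, 1343 and 1794 in KO, a log2 difference of -2.03 (SE 0.27, limma adjusted p = 0.0109). The labels do not say which part of Morc1 was deleted. That adjusted p was 0.0511 without het replicate 1, 0.101 without KO replicate 1 and 0.0663 without KO replicate 3. One library stood apart by cell type markers: the summed level of 5 Leydig cell markers was 24921 normalized counts in het replicate 3, beside 776 and 1079 in the other het libraries and 510 to 1075 in the KO libraries. No Leydig marker was at 0 in any library, although Insl3 was as low as 0.954, and 0 of 5 passed the limma test. Summed germ cell markers (10 genes) ran from 141334 to 214486 in het and from 149031 to 215558 in KO, and were lowest in het replicate 3. Summed Sertoli cell markers (7 genes) ran from 17536 to 37259 in het and from 12581 to 18099 in KO, with 0 of 7 called by limma and 7 of 7 lower in KO by their estimates. For 3 of the 7 (Sox9, Amh and Clu) the unadjusted p was under 0.05 and every KO library lay below the het libraries, against 6.86% and 5.57% of all tested genes. Their part in the Polycomb gene levels was not tested. In RNA from a cell population, fewer cells of a type and less RNA per cell cannot be told apart.

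Ezh1 and Ezh2 encode the alternative methyltransferases of PRC2. EZH2 is typical of dividing cells, whereas EZH1 is also found in cells that have stopped dividing. Ezh1 (chromosome 11, 101191115 to 101226463, minus strand, GRCm38) had normalized counts of 6850.4, 6951 and 3483 in the het libraries, in replicate order here and throughout, while those of the KO libraries were 7336, 6148 and 7608. Only het replicate 3 was low, and the 5 other libraries lay close together. The log2 difference was 0.35 (SE 0.28, 95% interval -0.27 to 0.97, limma adjusted p = 0.893), and it was 0.02 without het replicate 3. Ezh2 (chromosome 6, 47530139 to 47595341, minus strand) read 545, 548 and 1592 in het and 649, 1425 and 1181 in KO. Its highest library was het replicate 3, followed by KO replicates 2 and 3, so the high libraries came from both genotypes. KO minus het on the log2 scale was 0.40 (SE 0.44, interval -0.58 to 1.38, limma adjusted p = 0.926). Without het replicate 3 every KO library was above the remaining het libraries and the difference was 0.91, with a limma adjusted p of 0.612. Among the 10 genes, Ezh2 had the second largest spread between libraries, 2.92-fold from the lowest to the highest.

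Suz12, the partner that PRC2 needs for stability and activity (chromosome 11, 79993106 to 80034123, plus strand), followed the library order of Ezh2 in part. It read 1378, 1538 and 2591 normalized counts in het and 1753, 2754 and 2045 in KO. Het replicate 3 and KO replicate 2 were highest, and the groups overlapped. On the log2 scale KO differed from het by 0.28 (SE 0.29, interval -0.36 to 0.92, limma adjusted p = 0.916), 0.10 without KO replicate 2 and 0.56 without het replicate 3.

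Genes of dividing cells were set beside Ezh2 and Suz12, and they did not all go the same way. A summed level is set mostly by the abundant genes of a list. In het replicate 1, for example, Mcm2 read 6203 normalized counts and Mki67 read 773. The summed level of 9 genes of dividing cells, a list added after the values were seen, was 26895, 27754 and 21044 normalized counts in het. In KO it was 23203, 33013 and 20914. It was highest in KO replicate 2 but second lowest in het replicate 3, although both libraries had the highest Ezh2 and Suz12. Single genes of the list went both ways, and 3 of the 9 were highest in these 2 libraries. Mki67, a marker of cycling cells, read 2073 and 1720 normalized counts in them, against 651 to 773 in the other 4 libraries. Cdk1, the mitotic kinase, read 1345 and 1694 there, against 518 to 866. E2f1, a transcription factor of S-phase entry, read 1166 and 1783, against 570 to 605. KO replicate 3 was high for Ezh2 and not for these 3 genes. Ccnb1, Mcm2 and Pcna, by contrast, were lowest in het replicate 3, with 2413, 2728 and 4129 normalized counts. Germ cell marker sums were lowest in het replicate 3 and KO replicate 2. The part of dividing cells or of other cell types in the Ezh2 and Suz12 levels was not tested.

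The promoters of these 3 PRC2 genes are shown because Ezh2 and Suz12 were high, and Ezh1 low, in the same library, het replicate 3. The sequences are those just upstream of the RefSeq start (GRCm38.p6), 5′ to 3′ on the gene's strand. CCAAT, a box bound by NF-Y, was searched on both strands, so it also appears as ATTGG, and it is in capitals. For Ezh2 only the stretch outside annotated exons is printed.
Ezh1 (chr11:101226464-101226713, minus strand): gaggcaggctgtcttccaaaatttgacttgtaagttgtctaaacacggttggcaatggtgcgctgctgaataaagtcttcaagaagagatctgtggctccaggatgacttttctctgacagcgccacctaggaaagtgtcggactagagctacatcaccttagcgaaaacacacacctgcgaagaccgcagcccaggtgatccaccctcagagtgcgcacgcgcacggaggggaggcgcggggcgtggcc
Ezh2 (chr6:47595059-47595183, minus strand): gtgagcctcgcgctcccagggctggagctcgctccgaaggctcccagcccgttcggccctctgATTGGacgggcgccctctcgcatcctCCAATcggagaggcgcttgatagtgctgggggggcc
Suz12 (chr11:79992856-79993105, plus strand): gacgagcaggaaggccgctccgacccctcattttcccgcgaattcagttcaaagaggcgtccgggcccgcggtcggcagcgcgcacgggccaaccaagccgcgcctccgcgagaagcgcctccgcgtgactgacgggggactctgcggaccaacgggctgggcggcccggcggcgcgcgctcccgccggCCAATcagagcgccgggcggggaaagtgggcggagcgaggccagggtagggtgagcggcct
In the full window of 250 bases, Ezh2 held 3 CCAAT boxes, of which 2 are in the printed stretch, Suz12 held 1 and Ezh1 held 0. At least 1 box was present in 33.8% of 32851 RefSeq promoter windows of the same length, and 3 or more in 2.79%. Among the 9 members with a promoter entry, Jarid2 was the only other gene with a box. Its window starting at 44730524 held 1 box and its window starting at 44731021 held 0. The Scml2 window, 161162500 to 161162749, lies inside the gene as annotated by GENCODE, not at its annotated start. The level of Jarid2 was lowest in het replicate 3, like that of Ezh1. Bmi1 and Ring1, whose windows held 0 boxes, were highest in that library. These comparisons rest on het replicate 3 alone, the library with the highest Leydig and Sertoli marker sums. Any bearing of the boxes on the levels was not tested. The Suz12 window also held 1 match to an E2F-type motif (TTTCCCGC, TTTGGCGC or TTTCGCGC, either strand), which 1.53% of windows hold, and the Ezh1 and Ezh2 windows held 0. The windows differed in CpG content, with 14 CpG for Ezh1, 23 for Ezh2 and 37 for Suz12, beside a median of 6. A match describes these letters only. CCAAT was chosen for display after 5 motifs had been counted.

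Eed encodes the subunit that reads the PRC2 mark and stimulates the enzyme (chromosome 7, 89954654 to 89980983, minus strand). It read 4669.6, 4832 and 4563 normalized counts in het and 5911, 4124 and 9673 in KO. The het libraries were nearly equal, whereas the KO libraries included both the lowest and the highest value. The log2 difference was 0.40 (SE 0.29, interval -0.24 to 1.03, limma adjusted p = 0.880). It rested on KO replicate 3, without which it was 0.07. Without KO replicate 2 it was 0.69, with a limma adjusted p of 0.468. Eed shares 261 identical bases with the opposite-strand transcript E230029C05Rik, which read 215 to 436 normalized counts, and counting by strand is not given in the sources used here.

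Jarid2 encodes a DNA-binding cofactor that brings PRC2 to chromatin (chromosome 13, 44729474 to 44921643, plus strand). It was the steadiest of the 10 genes, 1.23-fold between the lowest and highest library. It read 9383, 10210.4 and 8459.7 normalized counts in het and 9904, 10401 and 10427 in KO. KO minus het on the log2 scale was 0.14 (SE 0.18, limma adjusted p = 0.939), and its 95% interval of -0.26 to 0.53 was the narrowest, from 0.833-fold to 1.45-fold.

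**Figure D2:**
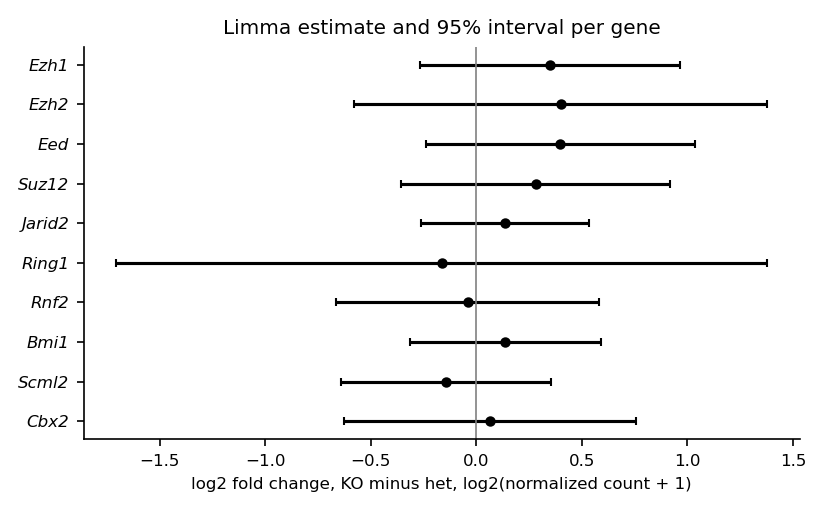
Limma estimate (point) and 95% interval (bar) of the log2 difference KO minus het on log2(normalized count + 1) for each Polycomb gene, 3 libraries per genotype, with the grey line at 0. Every interval includes 0; the narrowest is that of Jarid2 (-0.26 to 0.53) and the widest that of Ring1 (-1.70 to 1.38).

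Rnf2 and Ring1 encode the alternative ubiquitin ligases of PRC1, and nearly all of their RNA was Rnf2. Rnf2 (chromosome 1, 151458004 to 151500955, minus strand) read 7856, 8920.0 and 5144 normalized counts in het and 9224, 5046 and 7115 in KO. Het replicate 3 and KO replicate 2 were lowest, the reverse of Suz12 in the same libraries. On the log2 scale KO differed from het by -0.04 (SE 0.28, interval -0.66 to 0.58, limma adjusted p = 0.991). The opposite-strand gene Trmt1l overlaps Rnf2 and read 1031 to 1650.2 normalized counts. Ring1 (chromosome 17, 34020792 to 34024680, minus strand) read 26.7, 56.0 and 119 in het and 80.1, 83.7 and 18.6 in KO. Both groups spanned low and high libraries, 6.39-fold from KO replicate 3 to het replicate 3, the largest spread of the 10 genes. The log2 difference was -0.16 (SE 0.69, interval -1.70 to 1.38, limma adjusted p = 0.984), which spans 0.307-fold to 2.60-fold. Its sign turned to 0.37 without het replicate 3 and to 0.53 without KO replicate 3.

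Bmi1 encodes a PCGF subunit of canonical PRC1 and is known for stem cell maintenance (chromosome 2, 18677018 to 18686629, plus strand). It read 3929.7, 5278 and 5614 normalized counts in het and 5352, 5342 and 5417 in KO. Het replicate 1 was low, and the other 5 libraries were close together. KO minus het on the log2 scale was 0.14 (SE 0.20, interval -0.32 to 0.59, limma adjusted p = 0.944) and -0.02 without het replicate 1. The annotated gene Gm5946 matches 74.0% of the Bmi1 transcript at 97.0% identity, and read 8.27 to 28.3 normalized counts. How reads that match both were counted is not given in the sources used here.

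Scml2 encodes a germline Polycomb protein that associates with PRC1 in spermatogenic cells (chromosome X, 161117193 to 161258213, plus strand). It read 9753, 10019 and 7126 normalized counts in het and 9622, 8237 and 6549 in KO. KO replicate 3 was lowest and het replicate 2 highest, with the groups overlapping. On the log2 scale KO differed from het by -0.14 (SE 0.22, interval -0.64 to 0.36, limma adjusted p = 0.948), and 0.01 without KO replicate 3. Cbx2 encodes a chromodomain subunit that compacts chromatin and is needed for testis development (chromosome 11, 119022962 to 119031270, plus strand). It read 1939, 2345 and 1533 in het and 2483, 2602 and 1236 in KO. KO replicate 3 was below every het library, and the other KO libraries were above them. The log2 difference was 0.07 (SE 0.31, interval -0.63 to 0.76, limma adjusted p = 0.987), 0.41 without KO replicate 3 and -0.13 without KO replicate 2.

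Levels of different genes were compared per kilobase of exon, as the mean over the 6 libraries. Rnf2 was highest with 1749 normalized counts per kb, then Eed with 1470.4, Scml2 with 1407, Bmi1 with 1297, Jarid2 with 1008.5, Ezh1 with 859.7, Cbx2 with 475, Suz12 with 406, Ezh2 with 148 and Ring1 with 19.7. Among all tested genes Rnf2 was at the 95.9th percentile, Ezh2 at the 65.0th and Ring1 at percentile 22.2. Neighbours in this order did not all hold their place. Rnf2 was above Eed in 5 of 6 libraries, Eed above Scml2 in 2, Scml2 above Bmi1 in 4 and Cbx2 above Suz12 in 4, so these neighbours cannot be ordered. Bmi1 was above Jarid2, Jarid2 above Ezh1, Ezh1 above Cbx2, Suz12 above Ezh2 and Ezh2 above Ring1 in 6 of 6 libraries.

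**Figure D3:**
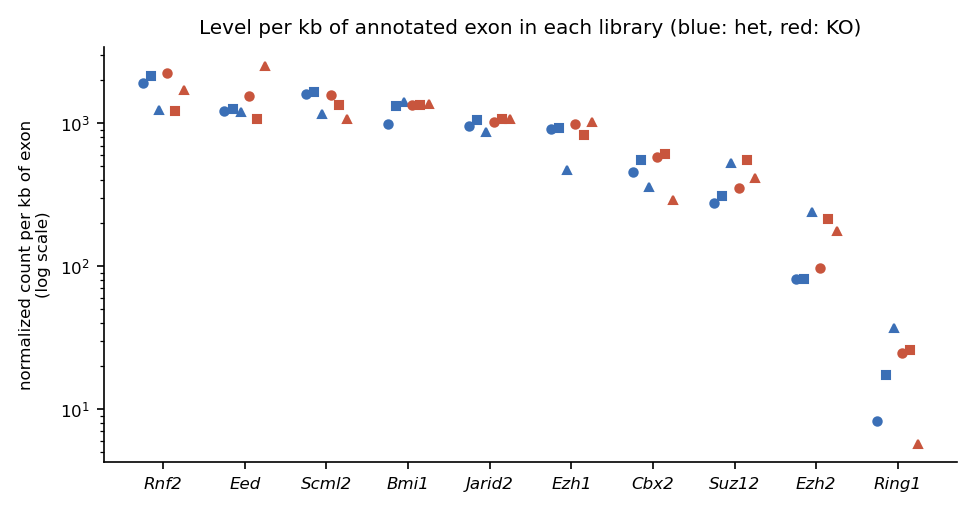
Normalized count per kb of exon of each Polycomb gene in each library on a log axis (het blue, KO red, with circles, squares and triangles for replicates 1, 2 and 3). Rnf2, Eed, Scml2 and Bmi1 lie within the same range, and Ring1 lies below the other 9 genes.

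Ezh1, Rnf2 and Bmi1 carried most of the RNA of their paralog pairs, and all 4 shares examined overlapped between genotypes. Shares were taken per kb of exon within each library, so they do not depend on the scaling of libraries. Ezh1 was 91.9%, 91.9% and 66.3% of Ezh1 plus Ezh2 in het and 91.0%, 79.5% and 85.3% in KO, lowest in het replicate 3. By an exact permutation test (two-sided, 3 against 3, smallest possible p 0.1) p was 1. Ring1 was 0.431%, 0.793% and 2.86% of Ring1 plus Rnf2 in het and 1.09%, 2.07% and 0.332% in KO (exact permutation p = 0.8). Bmi1 was 91.5%, 94.7% and 91.2% of Bmi1 plus Pcgf2 in het and 93.6%, 88.5% and 93.8% in KO (exact permutation p = 0.8). Cbx2 was 47.4%, 54.4% and 36.1% of the 5 PRC1 Cbx genes in het and 52.1%, 40.9% and 27.4% in KO (exact permutation p = 0.6). After Benjamini-Hochberg adjustment over these 4 shares each p was 1. Of the same 5 Cbx genes, Cbx8 averaged 39.9% and Cbx7 8.64%. Among 6 Pcgf genes Bmi1 averaged 52.3%.

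**Figure D4:**
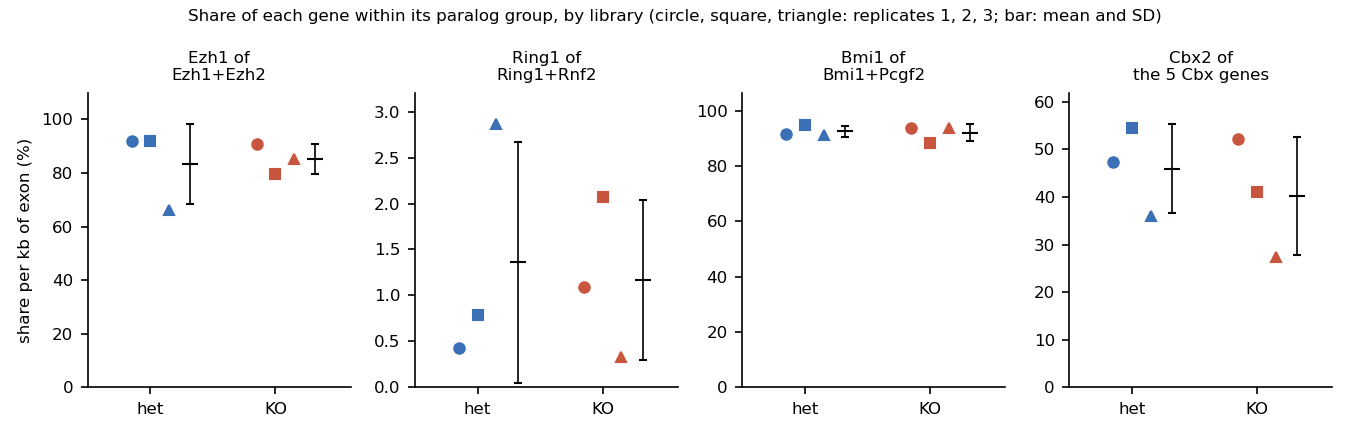
Share of a paralog group's normalized counts per kb of exon held by 1 gene in each library (het blue, KO red, with circles, squares and triangles for replicates 1, 2 and 3, and bars for the mean and SD of 3 libraries, axes starting at 0). Ezh1 holds 66.3% to 91.9% and Bmi1 88.5% to 94.7% of their pairs, Ring1 at most 2.86%, and the genotypes overlap in each panel.

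RNA of the rest of the pathway likewise held no gene past the threshold. A list of 47 further genes (other PRC2 and PRC1 subunits, the Pho-repressive complex, and enzymes and cofactors that remove Polycomb marks) was read from the same limma fit. All 47 passed the filter, and 0 of 47 had an adjusted p under 0.05. For the 57 genes including the 10 members, edgeR and DESeq2 also called 0. The unadjusted limma p was under 0.05 for 2 of 47, near the background of 6.86%, and the genotypes did not overlap for 4 of 47, beside 12.7%. The median log2 difference was 0.06. Uty, a Y-linked relative of the demethylase that erases the PRC2 mark, read 622, 682 and 511 normalized counts in het and 787, 1075 and 1044 in KO, a log2 difference of 0.67 (SE 0.24, limma adjusted p = 0.550). Y-linked genes outside this list, named after their values were seen, differed by 0.54 (Eif2s3y, limma adjusted p = 0.604), 0.29 (Ddx3y) and 0.006 (Kdm5d). Asxl3, a partner of the deubiquitinase BAP1, read 353, 349 and 761 in het and 718, 1156 and 689 in KO, a log2 difference of 0.87 (SE 0.35, limma adjusted p = 0.662). The X-linked demethylase Kdm6a, named after its value was seen, differed by -0.23 (limma adjusted p = 0.908). The genes with the highest level per kb were Rbbp7, a histone-binding subunit of PRC2 and other complexes, with 3923 normalized counts per kb, Bap1 with 2369 and Asxl1 with 1089.7.

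RNA of genes that Polycomb keeps silent in other cells was read next. Of 61 textbook targets (39 Hox genes and 22 other developmental or cell cycle regulators), 54 passed the filter, and 0 of 54 were called by limma, edgeR or DESeq2. The unadjusted p was under 0.05 for 3 of 54 by limma, beside 6.86% of all tested genes, and for 4 by edgeR and 6 by DESeq2. The unadjusted shares of all genes by edgeR and DESeq2 are not given here. By adjusted p, DESeq2 called 465 of 26005 genes, edgeR 129 and limma 123. Non-overlapping groups were found for 6 of 54, 5 with every KO library above and 1 below, against 7.17% and 5.57% of all tested genes. Pax6, the eye and brain regulator, read 289.9, 229 and 340.4 normalized counts in het and 417, 464 and 435 in KO, a log2 difference of 0.63 (SE 0.26, limma adjusted p = 0.679). Gata6 read 339, 257 and 626 in het and 271, 170.5 and 217 in KO, a log2 difference of -0.81 (limma adjusted p = 0.724). Its highest library was het replicate 3, which also had the highest Leydig and Sertoli marker sums. The part of other cell types in the Gata6 level was not tested. Among all 39 Hox genes, without a filter, 29 had a positive estimate, beside 17290 of all 35666 genes. The median was 0.36, beside -0.02 for all genes, and 5 of the 39 lay under the filter on low values. The Hox genes lie side by side in clusters and share the same libraries, so their signs are not independent of each other. None of the 34 Hox genes tested had an unadjusted p under 0.05, and the count that were positive among those 34 ran from 25 to 30 when 1 library was left out. Their median log2 difference was 0.39, and it was 0.22 without het replicate 2 and 0.59 without het replicate 3. The highest of the 61 per kb were T with 357 normalized counts, Cdkn2b with 343 and Isl1 with 176, between Suz12 and Ezh2 on the same scale.

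Trithorax proteins, which oppose Polycomb by methylating lysine 4 of histone H3, were the nearest comparison. Of 14 genes tested by limma, 0 were called and 0 had an unadjusted p under 0.05, and edgeR and DESeq2 gave 0 in both counts. The median log2 difference was -0.01, with 7 positive and 7 negative. The largest estimates were those of Setd1a (-0.46, SE 0.34, limma adjusted p = 0.888), Setd1b (0.38, SE 0.41) and Men1 (-0.24, SE 0.30). Wdr5, a shared scaffold, was highest per kb with 3246 normalized counts, above each of the 10 Polycomb genes, followed by Dpy30 with 2229 and Cxxc1 with 1597.

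A second measurement of the same loci came from the TE table, which counts reads per TE copy. It lists 163 copies in the 10 genes or within 10 kb of them, 119 in introns and 1 in an exon, and none at Bmi1. A mean of at least 10 was reached by 29 copies, of which limma called 0, against 16.3% of all 49781 tested copies, and edgeR also called 0. Of all tested copies 15.6% were called higher and 0.735% lower in KO. Of the 29 copies, 24 lay within genes and 19 were at Scml2, so all tested copies are an unlike background. The share called among intronic copies of all genes is not given here. The unadjusted limma p was under 0.05 for 2 of 29, against 25.6%, and both were in Scml2. The genotypes did not overlap for 4 of 29, all 4 of them in Scml2 with KO below, while 30.3% of all tested copies did not overlap. Most members had little TE signal: the most-read copy held 199 reads over 6 libraries at Eed, 183 at Suz12, 111 at Jarid2, 65 at Ezh2 and 49 at Rnf2. At Ring1, Cbx2 and Ezh1 the most-read copies lay outside the gene, with 216, 69 and 45 reads.

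Scml2 was the member with most TE copies, 63 in all and 51 in its introns. Of the 16 intronic copies tested, 15 lay on the strand opposite to Scml2. Their log2 differences (KO minus het) were negative for 15 of 16 with a median of -1.13, beside 57.6% negative and a median of -0.16 for 22282 intronic copies of all genes. The 16 copies share a gene and the same libraries, so they are not independent of each other. KO replicate 3 was the lowest library for most of them, as it was for the Scml2 gene count. The median without that library is not given here. For 4 of 16 (25%) the KO libraries all lay below the het libraries, against 7.58% of all copies. The copy at chromosome X, 161135265 to 161137056, read 43.2, 48.2 and 33.5 normalized TE counts in het and 13.4, 18.6 and 3.42 in KO, a log2 difference of -1.97 (SE 0.64, limma adjusted p = 0.0570). The copy at 161209984 to 161211096 read 27.4, 29.2 and 16.3 in het and 12.4, 1.55 and 0 in KO, a log2 difference of -2.92 (SE 1.00, limma adjusted p = 0.0733). In both, the genotypes did not overlap, and neither passed the adjusted threshold. The most-read copy, at 161233598 to 161234480, read 99.1, 92.0 and 101 in het and 74.4, 49.5 and 77.8 in KO, a log2 difference of -0.55 (SE 0.37, limma adjusted p = 0.431).

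The size of the Scml2 difference depended on the scaling of libraries. The TE table's size factors matched factors recomputed from the copies themselves, of which 15.6% were called higher and 0.735% lower in KO. Summed over the 51 intronic copies, normalized TE counts reached 557, 633 and 564 in het, against 446, 467 and 257 in KO, without overlap. Scaled by the gene table's size factors the sums came to 503, 545 and 573 in het, against 463, 623 and 294 in KO, and the groups overlapped. Per 100 Scml2 gene reads there were 5.16, 5.44 and 8.05 TE reads in het and 4.81, 7.56 and 4.49 in KO, again overlapping. With gene size factors 15 of the 16 copies were still negative, with a median of -0.84, while the median of all copies moved up by 0.31. The source of these intronic reads was not tested.

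**Figure D5:**
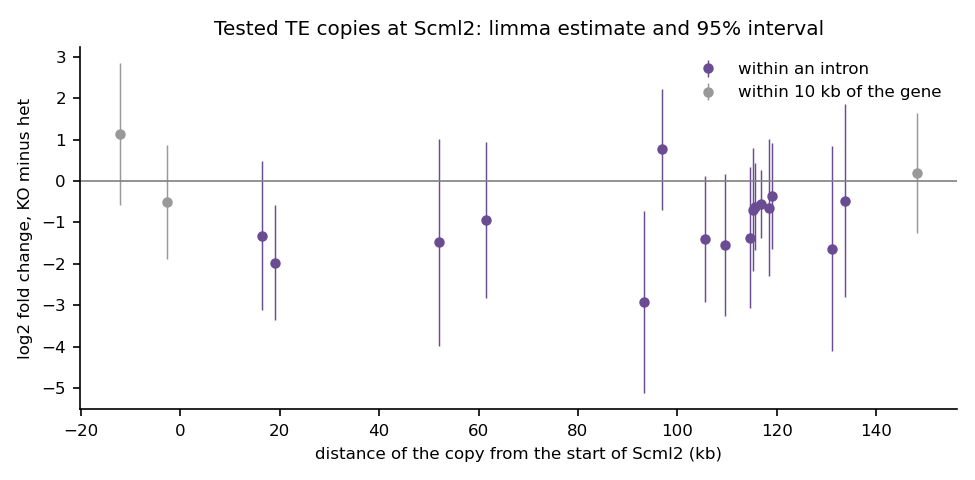
Limma estimate (point) and 95% interval (bar) of the log2 difference KO minus het for each of the 19 tested TE copies at Scml2, against distance from the gene's start in kb, with 16 intronic copies in purple and 3 copies within 10 kb of the gene in grey. The intronic points lie below 0 for 15 of 16, and most of their intervals include 0.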

How the data were processed

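RNA was measured in 6 P0 libraries of male germ cells, 3 het and 3 KO. The labels also list 6 samples of postnatal day 3, not analysed here. Groups and replicate numbers came from the sample titles. The deposited gene table holds a signal, read counts that the authors normalized with DESeq2 per the deposited table's name. The deposited TE table also holds a signal and not raw counts. The submitters' processing notes name bcl2fastq 2.20, cutadapt 1.18, HISAT2 2.1.0, featureCounts 1.5.2 and DESeq2 1.26.0 with mm10 and GRCm38. Strand handling and the treatment of reads matching several places are not given in the sources used here. The share of values that were whole multiples of one step (tolerance 0.001) was 100% in every column, so reads were recovered for the count tests. In both tables the reciprocal of each step equalled the median-of-ratios size factor recomputed from that table's own recovered reads (to within 0.000221%). An automatic check of whole reads could not be applied to KO replicate 1 of the gene table, whose step of 0.989 is close to 1.

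Of 35666 genes, 35560 matched GENCODE M21 (GRCm38). The test was limma (version 3.58.1, R 4.3.3), with linear fits and trended empirical Bayes moderation, two-sided. It used log2(value + 1), a scale that understates the change of low features, for genes and TE copies whose mean reached 10. P-values were adjusted by Benjamini-Hochberg over all 26005 genes or 49781 copies tested, with calls at 0.05. Shares were compared by exact permutation with scipy 1.17.1. TE positions were intersected with exons using bedtools 2.31.1, and similar transcripts were found with blastn 2.17.0. The fit was also run on simulated data, and the outcome is not given here. Alternatives were edgeR 4.0.16 and DESeq2 1.42.0 on recovered reads, TMM and quantile scaling, other pseudocounts and filters, no trend, a replicate block, and leaving out each library. Promoters are RefSeq sequences (GRCm38.p6), matched for 9 of the 10 genes.

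Each of the 10 genes is named. From the other lists every gene with an adjusted or unadjusted p under 0.05 is named, otherwise the 3 with the largest change, and the 3 highest per kb. One target gene that this rule names is not reported here. TE copies named are those called, the most-read copy at each gene, and 2 of Scml2 with an unadjusted p under 0.05, which were chosen after their values were seen. The members and lists were chosen with earlier results of these data known.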

Additional observations from a re-analysis of the deposited data

How the results depend on the processing

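Over 160 refits of the 10 Polycomb genes (16 alternatives each), 0 calls were made, the lowest limma adjusted p was 0.468, and 150 estimates kept their direction. The 10 that reversed came from leaving out 1 library. The log2 difference of Cbx2 (range -0.13 to 0.41) became -0.09 without KO replicate 1, -0.13 without KO replicate 2 and -0.09 without het replicate 3. That of Rnf2 (range -0.27 to 0.19) became 0.19 without KO replicate 2, 0.03 without het replicate 1 and 0.12 without het replicate 2. Ring1 (range -0.69 to 0.53) became 0.53 without KO replicate 3 and 0.37 without het replicate 3, Scml2 (range -0.30 to 0.00636) became 0.00636 without KO replicate 3, and Bmi1 (range -0.0194 to 0.24) became -0.0194 without het replicate 1. With 1 library left out, differences in share (percentage points) ran from -6.64 to 6.20 for Ezh1, with -0.980 without KO replicate 1, from -0.662 to 0.552 for Ring1, with 0.219 without KO replicate 3, from -1.42 to 1.24 for Bmi1, with 0.624 without het replicate 2, and from -11.8 to 0.551 for Cbx2. Counts of called genes in the wider Polycomb, target and trithorax lists were 0 under every alternative. TE copies called at the members were 1 without a filter, 2 with a pseudocount of 10 and 2 with quantile scaling, all in Scml2, and 0 to 1 with a library left out. The Morc1 log2 difference ran from -2.31 to -1.88 with a library left out, and without trend it was -2.03 with a limma adjusted p of 0.0890. In the fit with a replicate block, 0 members and 0 TE copies at members were called, 69 genes were called instead of 123, and the Morc1 adjusted p was 0.0415. Same-numbered libraries did not deviate together (gene correlations of 0.138, -0.163 and -0.0438). With so few libraries this cannot show whether they were paired, and the labels do not say. With 3 libraries per genotype the 95% intervals are wide: that of Ezh2 runs from 0.670-fold to 2.60-fold. The cause of the reversals was not tested.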
